A study of Mus musculus with 8 samples.

Results

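The genes described here encode the mitochondrial ribosomal proteins, taken as every row of the deposited count tables whose symbol is Mrpl or Mrps followed by a number and at most 1 letter. There were 76 such genes among the 21997 genes listed in both tables, 47 named for the large subunit (Mrpl) and 29 for the small subunit (Mrps). The study sequenced RNA of 8 follicles from ovaries of C57BL/6 mice, 1 follicle per library. Small antral follicles from transplanted female germline stem cells (SAF-TF), preantral follicles from the same source (PF-TF), and the corresponding follicles of wild type mice (SAF-WT and PF-WT) had 2 libraries each. Its title concerns ovarian function regained after such a transplant, and the design sets sources and stages against each other. The labels give neither the age of the animals, nor the host of the transplant, nor which cells of a TF follicle came from the transplanted cells.

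Mitochondrial ribosomes translate the few messages of the mitochondrial genome, all of which encode subunits of the oxidative phosphorylation complexes. Their proteins are encoded in the nucleus, made in the cytosol and imported, whereas their ribosomal RNA is mitochondrial. The large subunit joins amino acids and the small subunit decodes the message; many of the proteins descend from bacterial ribosomal proteins, and others are found only in mitochondria. In the ovary, the oocyte holds a large mitochondrial pool, and variants in several genes of mitochondrial translation, MRPS22 and LARS2 among them, are known in women with ovarian insufficiency.

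Total counts ran from 7656108 to 9805287 per library, and all 76 genes passed the low-count filter, with counts of 49 (Mrpl23) to 10328 (Mrpl42) per library. Nothing in the labels says whether follicles of a group came from separate animals, so p-values measure the spread between these libraries. The markers of cell types differed strongly between the groups. Summed levels of 10 oocyte markers were 182 to 365 CPM in SAF-TF, 12014 to 13297 CPM in PF-TF, 477 to 2453 CPM in SAF-WT and 5650 to 6185 CPM in PF-WT (CPM, TMM-scaled counts as a rate per library). The 8 granulosa markers summed to 1628 to 2433 CPM in SAF-TF, 3407 to 3516 CPM in PF-TF, 600 to 730 CPM in SAF-WT and 2032 to 3160 CPM in PF-WT. The 6 luteal markers summed to 16077 to 21792 CPM in SAF-TF, against at most 276 CPM in any library of the other groups. The 6 stromal markers summed to 1209 to 1721 CPM in SAF-TF and 4794 to 7112 CPM in SAF-WT, against at most 326 CPM in any preantral library. The SAF libraries thus held markers of stroma, and SAF-TF also of luteal cells, besides those of the labelled follicle. No marker was at 0 counts in a whole group.

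Of the counts in each library, the mitochondrial ribosomal protein genes took 1.12% and 1.28% in SAF-TF, with 0.853% and 0.925% in PF-TF. In wild type follicles they took 1.51% and 1.48% in SAF-WT, with 1.20% and 1.16% in PF-WT. Summed over the large subunit, the level was 7141 and 7664 CPM in SAF-TF, 5060 and 5252 CPM in PF-TF, 10797 and 9958 CPM in SAF-WT, and 7607 and 7224 CPM in PF-WT. Summed over the small subunit, it was 4112 and 4511 CPM in SAF-TF, 3070 and 3365 CPM in PF-TF, 6136 and 5680 CPM in SAF-WT, and 4406 and 4234 CPM in PF-WT. In both subunits every SAF-WT library was above all others and every PF-TF library below all others, while SAF-TF and PF-WT overlapped. The mean of both subunits together was 1.40 times as high in SAF-TF as in PF-TF and 1.39 times as high in SAF-WT as in PF-WT. It was 0.719 times as high in SAF-TF as in SAF-WT and 0.713 times as high in PF-TF as in PF-WT.

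**Figure D1:**
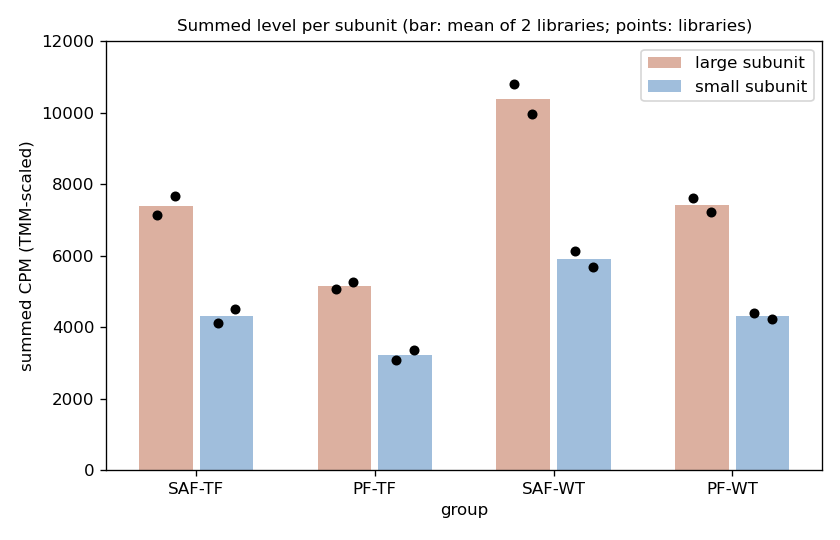
Summed TMM-scaled CPM of the 47 large-subunit and the 29 small-subunit genes in the 4 groups; bars are means of 2 libraries and points are the libraries. Both subunits were highest in SAF-WT and lowest in PF-TF, with no overlap of either group with any other.

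The balance between the subunits differed less than their levels. The log2 ratio of summed large over summed small subunit CPM was 0.78 ± 0.02 in SAF-TF, 0.68 ± 0.06 in PF-TF, 0.81 ± 0.00365 in SAF-WT and 0.78 ± 0.01 in PF-WT (SD, n = 2 each). The 2 PF-TF libraries, at 0.72 and 0.64, were the lowest, and no test was run on this ratio. Structures of the mitochondrial ribosome place Mrps18a and Mrps30 in the large subunit and assign Mrps36 to the oxoglutarate dehydrogenase complex. With those 3 genes moved accordingly, the log2 ratio was 0.96 in SAF-TF, 0.87 in PF-TF, 0.94 in SAF-WT and 0.95 in PF-WT.

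Levels of single genes, per kilobase of the longest principal transcript and averaged over the 8 libraries, spanned a wide range. The highest were Mrpl42 (817 CPM per kb), Mrpl33 (739 CPM per kb), Mrps21 (503 CPM per kb), Mrpl52 (385 CPM per kb) and Mrps18c (340 CPM per kb). The lowest were Mrps26 (18.6 CPM per kb), Mrpl3 (16.6 CPM per kb), Mrpl23 (14.9 CPM per kb), Mrpl19 (8.44 CPM per kb) and Mrps5 (5.71 CPM per kb). The median gene of the large subunit was at 83.6 CPM per kb and that of the small subunit at 90.9 CPM per kb. With the shortest principal transcript as the length, 3 of the 5 highest and 5 of the 5 lowest kept their places. These levels lean on the annotation: 32 of the genes have exons overlapping another gene, 11 have a listed pseudogene, and the strand setting of the counting is not given, so reads of such pairs cannot be told apart.

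**Figure D2:**
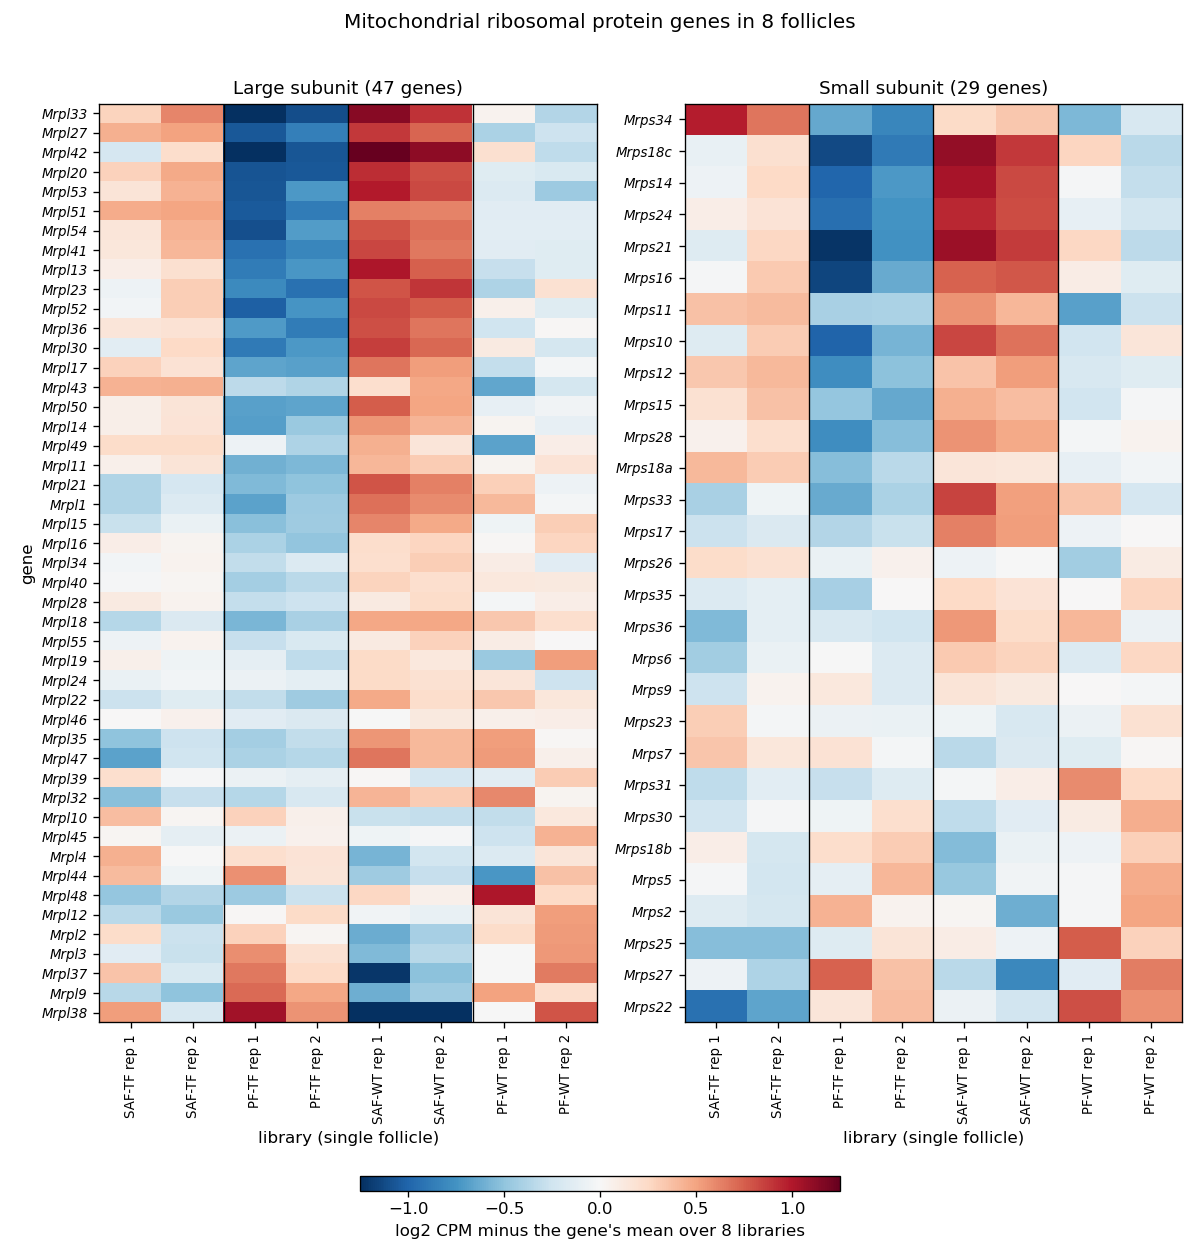
Log2 CPM of each gene minus its mean over the 8 libraries (colour, limited at both ends of the scale), one row per gene, with large-subunit genes on the left and small-subunit genes on the right. Genes near the top are blue in PF-TF and red in SAF-WT, and near the bottom Mrpl9 and Mrps22 are higher in every preantral than in every small antral library.

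Of the 76 genes, 49 had their highest group mean in SAF-WT, 12 in PF-WT, 8 in SAF-TF and 7 in PF-TF, and 45 had their lowest in PF-TF. The widest ranges of the 4 group means on the log2 CPM scale were those of Mrpl42 (2.45), Mrpl33 (2.31), Mrpl38 (2.18) and Mrps18c (2.00). The narrowest was that of Mrpl45 (0.17), which tethers the ribosome to the inner membrane at the exit of the nascent chain. Mrpl45 lay between 86.7 and 140 CPM in all 8 libraries.

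Small antral follicles from transplanted cells were set against preantral follicles of the same source (SAF-TF over PF-TF). In SAF-TF, 29 of the 76 genes were higher and 2 were lower (adjusted p under 0.05, edgeR quasi-likelihood test), where 18.2% and 25% of all 17925 genes tested were called higher and lower. By subunit these were 17 higher and 1 lower of 47 in the large subunit, and 12 higher and 1 lower of 29 in the small subunit. The median log2 fold change was 0.24 over the 76 genes and -0.08 over all genes. With the scale factors of the authors the median of all genes was 0.27, and that of the 76 genes stood 0.32 above it under either scaling. The libraries did not overlap for 47 genes that were higher and 9 that were lower, against 34.8% and 39.5% of all genes.

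Mrpl33, a small large-subunit protein of bacterial descent, had 363 and 457 CPM in SAF-TF, against 107 and 139 CPM in PF-TF. Mrpl20, whose bacterial counterpart binds ribosomal RNA early in assembly, had 214 and 244 CPM in SAF-TF, against 83.1 and 83.9 CPM in PF-TF. Mrpl27, whose bacterial counterpart lies at the peptidyl transferase centre, had 255 and 265 CPM in SAF-TF, against 89.8 and 103 CPM in PF-TF. Mrpl51, a large-subunit protein found only in mitochondria, had 275 and 279 CPM in SAF-TF, against 96.1 and 109 CPM in PF-TF. In these 4 genes both SAF-TF libraries lay well above both PF-TF libraries. Their log2 fold changes, with standard error and edgeR adjusted p, were 1.74 ± 0.24 (0.000401) for Mrpl33, 1.46 ± 0.18 (0.000269) for Mrpl20, 1.43 ± 0.19 (0.000334) for Mrpl27 and 1.44 ± 0.18 (0.000252) for Mrpl51. Gm6304 is a listed pseudogene of Mrpl27 and Gm14017 of Mrpl51, exons of Mrpl33 overlap Gm43809, those of Mrpl27 overlap Eme1, and those of Mrpl51 overlap Mir3098.

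The 2 genes that fell were Mrps22 and Mrpl9. Mrps22, a mitochondria-specific protein of the small subunit that human genetics links to ovarian insufficiency, had 107 and 130 CPM in SAF-TF, against 228 and 269 CPM in PF-TF. Mrpl9, of bacterial descent, had 48.0 and 43.2 CPM in SAF-TF, against 99.5 and 85.3 CPM in PF-TF; its exons overlap Oaz3 on the opposite strand. Neither gene's groups overlapped. The log2 fold change was -1.07 ± 0.20 for Mrps22 (edgeR adjusted p = 0.00255) and -1.02 ± 0.22 for Mrpl9 (edgeR adjusted p = 0.00492). Without PF-TF replicate 2, Mrps22 was at -0.80 with an edgeR adjusted p of 0.0523, and without PF-TF replicate 1, Mrpl9 was at -0.80 with an edgeR adjusted p of 0.0714. The median log2 fold change of the mitochondrial ribosomal protein genes stayed above that of all genes in these fits. It was 0.32 against -0.16 without SAF-TF replicate 1, and 0.26 against -0.12 without SAF-TF replicate 2. It was 0.34 against 0.04 without PF-TF replicate 1, and 0.44 against 0.12 without PF-TF replicate 2. With PF-WT replicate 2 left out, it was 0.24 against -0.09. All 10 oocyte markers fell in SAF-TF, and all 6 stromal, 6 luteal and 6 macrophage markers rose; their part in the result was not tested, and fewer cells of a type and less RNA per cell cannot be told apart in these bulk libraries.

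Promoters are printed for 4 of these genes, 2 that rose and the 2 that fell, since they hold motifs of regulators known for nuclear genes of mitochondrial proteins. They are RefSeq sequences of GRCm38.p6, from 250 bases before to 50 bases after the start given to the gene in the promoter table, on the strand of the gene. That start is the first base of the RefSeq gene record for Mrpl51 and Mrps22, and lies 21 bases inside the record for Mrpl27 and 182 bases inside it for Mrpl9. Capitals mark matches to CCGGAAGT, the ETS site bound by GABP, or to GCGCNTGCG, the site of NRF1. Mrpl51 lies at chr6:125191950-125192249 (+), Mrpl27 at chr11:94653541-94653840 (+), Mrps22 at chr9:98601630-98601929 (-) and Mrpl9 at chr3:94443086-94443385 (+).
Mrpl51: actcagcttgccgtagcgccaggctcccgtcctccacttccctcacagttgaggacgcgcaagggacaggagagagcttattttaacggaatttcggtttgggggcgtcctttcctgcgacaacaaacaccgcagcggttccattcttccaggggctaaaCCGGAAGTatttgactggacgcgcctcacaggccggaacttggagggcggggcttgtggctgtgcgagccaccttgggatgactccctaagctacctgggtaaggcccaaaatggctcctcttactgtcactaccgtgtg
Mrpl27: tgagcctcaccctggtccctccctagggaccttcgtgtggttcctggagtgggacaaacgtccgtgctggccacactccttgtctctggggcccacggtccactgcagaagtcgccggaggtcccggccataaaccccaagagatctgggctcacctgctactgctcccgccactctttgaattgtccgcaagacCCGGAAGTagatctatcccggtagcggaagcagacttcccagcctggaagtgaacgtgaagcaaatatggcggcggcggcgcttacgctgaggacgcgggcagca
Mrps22: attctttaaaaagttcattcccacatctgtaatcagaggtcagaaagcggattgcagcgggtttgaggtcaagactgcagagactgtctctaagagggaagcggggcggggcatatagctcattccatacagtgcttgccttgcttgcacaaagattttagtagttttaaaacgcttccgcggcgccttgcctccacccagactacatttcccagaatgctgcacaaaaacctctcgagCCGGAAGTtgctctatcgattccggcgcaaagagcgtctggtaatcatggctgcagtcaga
Mrpl9: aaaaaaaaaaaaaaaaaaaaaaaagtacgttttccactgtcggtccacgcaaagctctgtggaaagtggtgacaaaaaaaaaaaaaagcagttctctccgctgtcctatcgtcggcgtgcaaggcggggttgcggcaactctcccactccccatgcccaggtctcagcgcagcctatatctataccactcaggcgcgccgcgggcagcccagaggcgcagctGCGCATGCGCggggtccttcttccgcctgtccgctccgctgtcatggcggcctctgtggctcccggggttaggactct
The ETS match began 90 bases before the start of the promoter table in Mrpl51, 55 bases before it in Mrpl27 and 11 bases before it in Mrps22. In Mrpl9, matches to the NRF1 letters on both strands overlapped, at 28 and 27 bases before the start of the promoter table, which is inside the gene record. A promoter was listed for 67 of the 76 genes, and both strands were searched. The NRF1 letters were in 17 of them (25.4%, against 7.12% of the promoters of all 27025 genes listed), the ETS letters in 12 (17.9%, against 4.31%) and AAGATGGCG, the site of YY1, in 8 (11.9%, against 1.64%). Of 34 genes with any of the 3 motifs, 15 were higher and 2 lower in SAF-TF than in PF-TF. Of 33 without, 10 were higher and 0 lower (18.2% and 25% of all genes). In SAF-WT over PF-WT, 13 were higher and 4 lower with a motif, and 10 and 1 without (12.7% and 22.5% of all genes). The median log2 fold change was smaller with a motif than without, at 0.21 against 0.29 in TF and 0.17 against 0.26 in WT. The difference between genes with and without a motif was not tested. The printed promoters were chosen for holding a motif, and a match does not show that a factor binds there.

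The same stages were compared in wild type follicles (SAF-WT over PF-WT). In SAF-WT, 26 of the 76 genes were higher and 6 lower by the edgeR test, where 12.7% and 22.5% of all genes were called higher and lower. These were 16 higher and 5 lower in the large subunit, and 10 higher and 1 lower in the small subunit. The median log2 fold change was 0.24 over the 76 genes and -0.20 over all genes. The split depended on the scaling: with the scale factors of the authors 37 genes were higher and 1 lower, where 20.1% and 17.4% of all genes were. With a correction for GC content and length 37 were higher and 2 lower, where 18.9% and 17.1% of all genes were. These settings moved the median of all genes to 0.14 and 0.16, and the median of the 76 genes stood above that of all genes by 0.44 as reported, by 0.43 with the scale factors of the authors and by 0.37 with the correction. The libraries did not overlap for 44 genes that were higher and 15 that were lower, against 30.9% and 40% of all genes.

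Mrpl27 had 346 and 310 CPM in SAF-WT, against 142 and 156 CPM in PF-WT. Mrpl13, a conserved large-subunit protein, had 435 and 363 CPM in SAF-WT, against 176 and 194 CPM in PF-WT. Mrps24, of the small subunit, had 523 and 478 CPM in SAF-WT, against 252 and 232 CPM in PF-WT. In these genes, and in Mrpl20 with 332 and 307 CPM in SAF-WT against 157 and 154 CPM in PF-WT, the groups stood apart. The log2 fold changes, with standard error and edgeR adjusted p, were 1.14 ± 0.19 (0.00164) for Mrpl27, 1.10 ± 0.19 (0.00211) for Mrpl13, 1.05 ± 0.18 (0.00216) for Mrps24 and 1.04 ± 0.18 (0.00227) for Mrpl20. Exons of Mrpl13 overlap Mtbp and those of Mrps24 overlap Urgcp.

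Lower in SAF-WT were Mrpl38, Mrpl37, Mrpl2, Mrpl9, Mrpl3 and Mrps22. Mrpl38, a mitochondria-specific protein of the central protuberance, had 16.2 and 16.1 CPM in SAF-WT, against 40.9 and 70.8 CPM in PF-WT. Mrps22 had 196 and 174 CPM in SAF-WT, against 360 and 305 CPM in PF-WT. Mrpl9 had 40.1 and 44.8 CPM in SAF-WT, against 86.7 and 70.7 CPM in PF-WT. The groups did not overlap in any of these 3 genes, though the PF-WT libraries of Mrpl38 lay far apart. Mrpl2, a conserved protein next to the peptidyl transferase centre, had 55.9 and 64.5 CPM in SAF-WT, against 101 and 124 CPM in PF-WT, again without overlap. The log2 fold changes with edgeR adjusted p were -1.79 ± 0.36 (0.00428) for Mrpl38, -0.85 ± 0.20 (0.0104) for Mrps22, -0.89 ± 0.22 (0.0124) for Mrpl9 and -0.90 ± 0.24 (0.0177) for Mrpl2. Those of the others were -1.18 ± 0.34 (0.0219) for Mrpl37 and -0.74 ± 0.26 (0.0475) for Mrpl3.

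The wild type counts leaned on single libraries. Higher genes numbered 8 without SAF-WT replicate 1 and 17 without SAF-WT replicate 2, and lower genes 1 and 2. Of all genes, 4.79% and 7.24% were higher and 11.1% and 14.8% lower in these fits. Mrpl27, Mrpl13, Mrps24 and Mrpl20 passed whichever of the 8 libraries was left out, whereas Mrps22, Mrpl9 and Mrpl2 missed the threshold without either SAF-WT replicate, with edgeR adjusted p of 0.0563 to 0.136. Without PF-WT replicate 1, Mrps22 (0.0892) and Mrpl9 (0.0871) also missed it, and without PF-WT replicate 2, Mrpl2 (0.0738). Mrps22, Mrpl9 and Mrpl2 also missed it with the scale factors of the authors, at log2 fold changes of -0.51, -0.55 and -0.56. Of the oocyte markers 6 of 10 fell in SAF-WT, of the granulosa markers 5 of 8 fell, and 6 of 6 stromal and 5 of 5 theca markers rose, and their part in the result was not tested.

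The stage effects in TF and in WT share no library. Of the genes higher in SAF, 24 were called in both sources, which is 82.8% of those called in TF and 92.3% of those called in WT. They comprised 15 large-subunit and 9 small-subunit genes, and Mrpl9 and Mrps22 were lower in both. Of all genes, 18.2% were called higher in TF and 12.7% in WT. The share of all genes called in both sources was not counted, so the overlap cannot be read as particular to the 76 genes. Across the 76 genes the stage effects in TF and WT correlated at r = 0.88 (Spearman 0.90), and across all genes tested at 0.75 (0.76); genes of 1 library share its depth and composition. The sign was the same for 63 of the 76 genes (82.9%), against 79.8% of all genes.

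**Figure D3:**
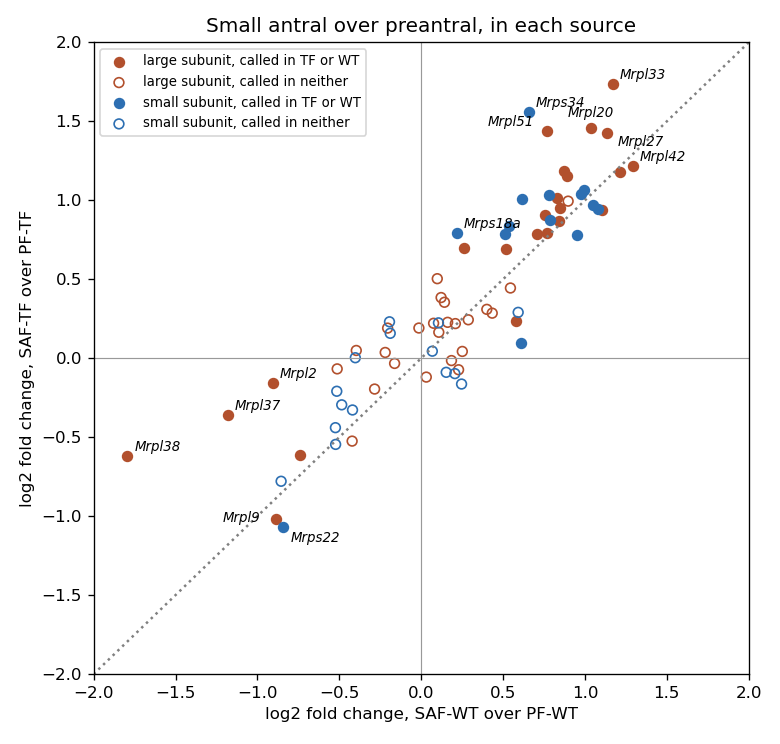
Log2 fold change of SAF-TF over PF-TF (vertical axis) against SAF-WT over PF-WT (horizontal axis) for the 76 genes; filled points passed the edgeR test in TF or WT, and the dotted line marks equal effects. Most filled points lie at the upper right, and Mrpl38, Mrpl37, Mrpl2, Mrpl3, Mrpl9 and Mrps22 are the filled points at the lower left.

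The genes that rose were mostly those with short transcripts. Of 25 genes under 1000 bases, 19 were higher in SAF-TF than in PF-TF and 0 lower, where 33.5% and 14.1% of all genes of that length were called. In the wild type comparison, 15 of these were higher and 0 lower, against 27.5% and 11.2%. Of 28 genes from 1000 to 2000 bases, 4 were higher and 2 lower in TF (22.2% and 26.4% of all genes of that length), and 5 were higher and 5 lower in WT (13.6% and 25.7%). Of 23 genes of 2000 bases or more, 6 were higher and 0 lower in TF (14.9% and 26%), and 6 were higher and 1 lower in WT (10.3% and 22.8%). Across the 76 genes, log2 length and the stage effect correlated at r = -0.41 (Spearman -0.50) in TF and -0.35 (-0.49) in WT, against -0.04 (-0.09) and -0.03 (-0.06) across 16392 genes. With the correction for GC content and length, 32 genes were higher and 2 lower in TF, where 22.1% of all genes were higher and 22.1% lower. The correction moved the median log2 fold change in TF from -0.08 to 0.11 over all genes, and from 0.24 to 0.42 over the 76 genes. Why length and the stage effect went together was not tested.

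**Figure D4:**
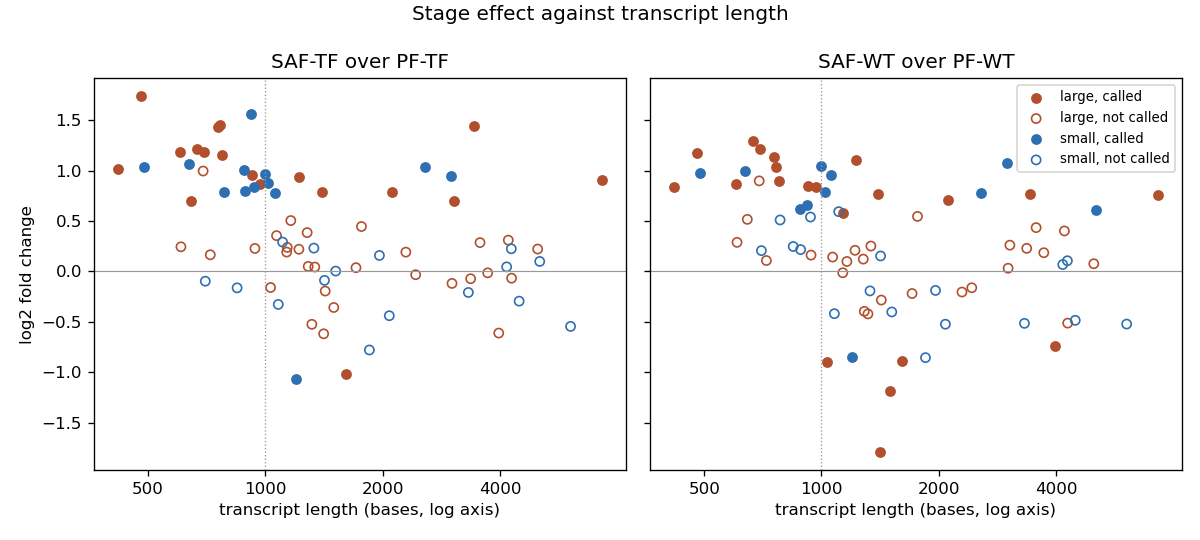
Log2 fold change of each gene between the stages against the length of its longest principal transcript (log axis), for TF on the left and WT on the right. Filled points passed the edgeR test and the dotted line marks 1000 bases. Left of the line nearly all points lie above 0, and right of it they scatter around 0.

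Of the large-subunit genes named for known roles, Mrpl2, Mrpl3 and Mrpl37 were lower in SAF-WT, as given above. By position in the ribosome, 1 of 6 others, named next, passed in TF, and 0 in WT. Of all genes, 18.2% were higher and 25% lower in TF, and 12.7% and 22.5% in WT. Mrpl12, which recruits translation factors at the stalk, had 143 and 131 CPM in SAF-TF, against 181 and 212 CPM in PF-TF, and 174 and 169 CPM in SAF-WT, against 202 and 258 CPM in PF-WT. The groups did not overlap in either source, at log2 fold changes of -0.52 ± 0.20 (edgeR adjusted p = 0.0586) and -0.42 ± 0.20 (0.13), and the WT value was 0.12 with the correction for GC content and length. Mrpl10, which anchors the stalk, was at 0.04 ± 0.25 in TF and -0.22 ± 0.25 in WT. Mrpl11, at the stalk base, was higher in SAF-TF (0.70 ± 0.18, edgeR adjusted p = 0.013) and not called in WT (0.26 ± 0.18). Mrpl16, of the core, was at 0.50 ± 0.19 in TF and 0.10 ± 0.19 in WT, and neither passed. Mrpl44, needed for the stability of the large subunit, was at -0.20 ± 0.35 and -0.28 ± 0.35, and Mrpl28 at 0.35 ± 0.18 and 0.14 ± 0.18.

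In the small subunit, Mrps12, of the decoding centre, had 197 and 206 CPM in SAF-TF, against 91.2 and 110 CPM in PF-TF, and 199 and 224 CPM in SAF-WT, against 136 and 141 CPM in PF-WT. Mrps16, of the body of the subunit, had 143 and 181 CPM in SAF-TF, against 64.9 and 93.2 CPM in PF-TF, and 240 and 246 CPM in SAF-WT, against 154 and 130 CPM in PF-WT. Both rose in both sources, Mrps12 by 1.01 ± 0.19 and 0.61 ± 0.19 and Mrps16 by 1.03 ± 0.23 and 0.78 ± 0.23 on the log2 scale. The core proteins Mrps2, Mrps5 and Mrps7 passed in neither source, at -0.44, -0.30 and 0.16 in TF. Mrps27, a pentatricopeptide repeat protein, was at -0.78 ± 0.31 in TF and -0.86 ± 0.32 in WT, with edgeR adjusted p of 0.0712 and 0.0611, and Mrps35 was at 0.04 ± 0.21 and 0.07 ± 0.21. Sorted by name, with the lower numbers taken from bacterial ribosomal proteins, 9 of 16 such small-subunit genes were higher and 0 lower in SAF-TF, and 3 of 13 with higher numbers were higher and 1 lower. In the large subunit these counts were 9 higher and 1 lower of 28, and 8 higher and 0 lower of 19. Among all genes 18.2% were higher and 25% lower. In SAF-WT the small-subunit counts were 8 higher and 0 lower of 16, and 2 higher and 1 lower of 13. Those of the large subunit were 8 higher and 3 lower of 28, and 8 higher and 2 lower of 19 (12.7% and 22.5% of all genes). The difference between the classes was not tested.

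The 3 paralogs of Mrps18 differed in which comparisons they passed. Mrps18c had 179 and 220 CPM in SAF-TF, 87.5 and 103 CPM in PF-TF, 409 and 353 CPM in SAF-WT, and 231 and 151 CPM in PF-WT. It rose between the stages in both sources without overlap, by 1.06 ± 0.24 in TF and 1.00 ± 0.24 in WT on the log2 scale (edgeR adjusted p = 0.00662 and 0.0113). Mrps18a had 230 and 216 CPM in SAF-TF, 120 and 137 CPM in PF-TF, 193 and 191 CPM in SAF-WT, and 162 and 170 CPM in PF-WT. It rose in TF (0.79 ± 0.18, edgeR adjusted p = 0.00645), and in WT its 0.22 ± 0.18 did not pass. Mrps18b had 64.7 and 52.1 CPM in SAF-TF, 70.8 and 75.9 CPM in PF-TF, 41.8 and 57.6 CPM in SAF-WT, and 58.2 and 74.7 CPM in PF-WT. It passed in neither source, at -0.33 ± 0.25 in TF, which was 0.02 with the scale factors of the authors, and -0.42 ± 0.25 in WT. Human structures place the proteins of the b and c paralogs in the small subunit at different sites, and that of the a paralog in the large subunit. Mrps18b has a listed pseudogene, Gm15760. Of the others that structures place elsewhere, Mrps30 was at -0.21 ± 0.22 in TF and -0.52 ± 0.22 in WT, and Mrps36 at -0.10 ± 0.26 and 0.21 ± 0.25, and none passed.

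Mrpl46 and Mrps11 are neighbours on chromosome 7 of GRCm38, transcribed away from each other, with 41 bases between Mrpl46 (78775341 to 78783089) and Mrps11 (78783131 to 78792988) in RefSeq. Mrps11 had 173 and 175 CPM in SAF-TF, against 101 and 102 CPM in PF-TF, and 198 and 178 CPM in SAF-WT, against 83.5 and 111 CPM in PF-WT. Mrpl46 had 80.5 and 83.2 CPM in SAF-TF, against 72.6 and 70.8 CPM in PF-TF, and 79.7 and 87.0 CPM in SAF-WT, against 83.5 and 84.8 CPM in PF-WT. Mrps11 rose by 0.78 ± 0.20 in TF and 0.95 ± 0.20 in WT on the log2 scale (edgeR adjusted p = 0.0117 and 0.00609), while Mrpl46 was at 0.19 ± 0.19 and -0.01 ± 0.19 and did not pass. The difference between the neighbours was not tested, and some of their GENCODE exons overlap on opposite strands.

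Small antral follicles were then compared between the sources (SAF-TF over SAF-WT). In SAF-TF, 12 of the 76 genes were lower and 1 was higher by the edgeR test, where 5.34% and 4.61% of all genes were called lower and higher. The lower genes were 7 of the large and 5 of the small subunit. The median log2 fold change was -0.33 over the 76 genes and 0.00 over all genes. Corrected for GC content and length, these medians were -0.23 and -0.06, a distance of -0.17 instead of -0.33. The libraries did not overlap for 51 genes that were lower and 12 that were higher, against 32.5% and 31.3% of all genes.

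Mrpl42, a mitochondria-specific protein of the large subunit, had 391 and 524 CPM in SAF-TF, against 1183 and 976 CPM in SAF-WT. Mrpl21, of bacterial descent, had 158 and 178 CPM in SAF-TF, against 354 and 319 CPM in SAF-WT. Mrps17, a conserved RNA-binding protein of the small subunit, had 264 and 280 CPM in SAF-TF, against 493 and 455 CPM in SAF-WT. In each of them, both SAF-TF libraries were below both SAF-WT libraries, as they were in Mrpl1, of the mobile stalk at the exit of transfer RNA, with 90.3 and 104 CPM in SAF-TF against 189 and 177 CPM in SAF-WT. The log2 fold changes, with edgeR adjusted p, were -1.24 ± 0.24 (0.0169) for Mrpl42, a fall by 1.00 ± 0.20 (0.0174) for Mrpl21, -0.80 ± 0.17 (0.0237) for Mrps17 and -0.91 ± 0.21 (0.0304) for Mrpl1. Exons of Mrpl21 overlap Ighmbp2 on the opposite strand. The other 8 that were lower were Mrpl13, Mrpl18, Mrpl35, Mrpl47, Mrps14, Mrps18c, Mrps24 and Mrps33, and Mrps33 has a listed pseudogene, Gm5776.

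Mrpl38 went the other way. It had 59.2 and 35.8 CPM in SAF-TF, against 16.2 and 16.1 CPM in SAF-WT, and 85.2 and 60.8 CPM in PF-TF, against 40.9 and 70.8 CPM in PF-WT. The SAF groups did not overlap, while the PF groups did. The log2 fold change was 1.56 ± 0.35 in SAF (edgeR adjusted p = 0.0271) and 0.38 ± 0.34 in PF (0.559).

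Leaving out a library lowered most of these counts. Without SAF-TF replicate 1, SAF-WT replicate 1 or SAF-WT replicate 2, 0 genes were lower and 0 higher, by the edgeR test, and without SAF-TF replicate 2, 1 was lower and 1 higher. Of all genes, 0.259% to 2.10% were lower in these 4 fits. Without either PF-TF replicate or without PF-WT replicate 1, the median log2 fold change was -0.28 over the 76 genes and 0.03 over all genes. Without PF-WT replicate 2 these medians were -0.33 and 0.00. Of the 76 genes, 31 were lower and 5 higher at an unadjusted p under 0.05, against 14.7% and 13.9% of all genes, and DESeq2 called 19 lower, against 9% of all genes, and 1 higher. With the correction for GC content and length, 4 of the 76 were lower and 0 higher, where 3.5% and 2.64% of all genes were. The excess of lower genes over all genes was thus small in that fit. There, Mrpl42 was at -0.53 and Mrpl38 at 0.80 (edgeR adjusted p = 0.114 and 0.129). All 6 luteal, 4 of 6 macrophage, 2 of 8 granulosa and 1 of 5 theca markers were higher in SAF-TF than in SAF-WT. Lower were 4 of 5 theca, 2 of 6 stromal, 2 of 10 oocyte and 1 of 5 endothelial markers. The part of these markers in the result was not tested.

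In preantral follicles (PF-TF over PF-WT) no gene passed the edgeR test, where 0.0669% and 0.151% of all genes were called higher and lower. At an unadjusted p under 0.05, 39 of the 76 were lower and 0 higher (13.3% and 7.49% of all genes), and DESeq2 called 18 lower and 0 higher (5.52% of all genes called lower). The median log2 fold change was -0.48 over the 76 genes and -0.03 over all genes, and 62 of the 76 were negative. With the correction for GC content and length these medians were -0.26 and 0.03, so the distance between them was -0.29 instead of -0.45, and 0 genes were called. The libraries did not overlap for 50 genes that were lower and 1 that was higher, against 26.1% and 22.9% of all genes. Of the fits with a library left out, only that without PF-WT replicate 2 called any of the 76 genes, and it rests on 1 PF-WT library. The medians were -0.44 over the 76 genes and 0.00 over all genes in that fit. Without PF-WT replicate 1 they were -0.39 and 0.04.

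The smallest p-values were those of Mrpl20, Mrpl33, Mrpl42 and Mrpl51. Mrpl20 had 83.1 and 83.9 CPM in PF-TF, against 157 and 154 CPM in PF-WT. Mrpl33 had 107 and 139 CPM in PF-TF, against 309 and 233 CPM in PF-WT. Mrpl42 had 179 and 215 CPM in PF-TF, against 518 and 363 CPM in PF-WT. Mrpl51 had 96.1 and 109 CPM in PF-TF, against 180 and 180 CPM in PF-WT, and in none of the 4 genes did the groups overlap. Their log2 fold changes were -0.90 ± 0.18, -1.14 ± 0.23, -1.16 ± 0.24 and -0.82 ± 0.18, with edgeR adjusted p of 0.058, 0.058, 0.0588 and 0.0625, in the order named. With each library left out in turn, the log2 fold change ran from -0.95 to -0.84 for Mrpl20 and from -1.39 to -0.88 for Mrpl33. It ran from -1.39 to -0.84 for Mrpl42 and from -0.95 to -0.74 for Mrpl51. Markers of oocytes had 10 of 10, and of stroma 0 of 6, positive fold changes in PF-TF over PF-WT, with 0 and 1 called, and their part in the result was not tested.

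The source effects at the 2 stages, which share no library, had the same sign in 66 of the 76 genes (86.8%), against 62.5% of all genes, and were negative at both stages in 54. They correlated at r = 0.80 (Spearman 0.79) across the 76 genes and at 0.13 (0.28) across all genes. Across the 76 genes, the GC content of the transcript and the source effect correlated at r = 0.44 in SAF and 0.28 in PF, against 0.29 and 0.16 across all genes.

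**Figure D5:**
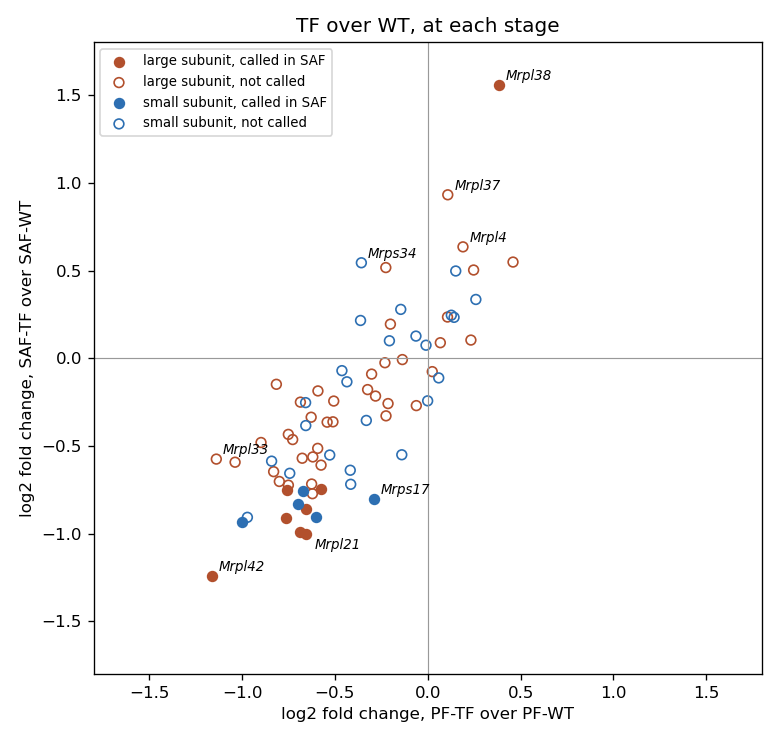
Log2 fold change of SAF-TF over SAF-WT (vertical axis) against PF-TF over PF-WT (horizontal axis) for the 76 genes; filled points passed the edgeR test in SAF, and none passed in PF. Most points lie at the lower left, below 0 on both axes, and Mrpl38 stands alone at the top.

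The stage by source interaction asked whether the stage effect differed between the sources. No gene passed the edgeR test, where 0.658% and 0.245% of all genes were called higher and lower; 4 were higher and 0 lower at an unadjusted p under 0.05 (8.94% and 6.42% of all genes), and DESeq2 called 0. The smallest p belonged to Mrps34, a mitochondria-specific protein needed in mice for a stable small subunit. It had 171 and 138 CPM in SAF-TF, against 55.6 and 49.4 CPM in PF-TF, and 103 and 110 CPM in SAF-WT, against 58.7 and 75.8 CPM in PF-WT. It rose by 1.56 ± 0.22 in TF and by 0.66 ± 0.22 in WT on the log2 scale, and its interaction was 0.90 ± 0.31 (edgeR adjusted p = 0.204). The interaction was 0.67 ± 0.25 for Mrpl51 (0.238), 1.17 ± 0.49 for Mrpl38 (0.29) and 0.58 ± 0.26 for Mrps18a (0.32). Exons of Mrps34 overlap Mapk8ip3 and Nme3.

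Mitoribosomal proteins that carry other names numbered 7 in the tables. Of these, 3 rose and 2 fell in SAF-TF over PF-TF (18.2% and 25% of all genes), and 4 rose and 2 fell in SAF-WT over PF-WT (12.7% and 22.5%). Chchd1, Aurkaip1 and Mrp63, structural proteins of the ribosome, rose in both sources. Dap3, a GTP-binding protein of the small subunit, and Gadd45gip1, of the large subunit, fell in both. Gadd45gip1 averaged 86.7 ± 10.3 CPM in SAF-TF, against 310 ± 5.70 CPM in PF-TF, a log2 fold change of -1.84 ± 0.24 (edgeR adjusted p = 0.000356), and it fell by 0.82 ± 0.24 in SAF-WT over PF-WT. In SAF-TF over SAF-WT, Gadd45gip1 (-1.26 ± 0.24) and Chchd1 (-0.95 ± 0.22) were lower.

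Lists of factors that build and serve the mitochondrial ribosome are set beside the shares of all genes called higher and lower, 18.2% and 25% in TF and 12.7% and 22.5% in WT. Of 19 assembly and ribosomal RNA factors, 1 was higher and 6 lower in SAF-TF than in PF-TF, and in WT 1 was higher and 5 lower between the same stages. Ddx28, a helicase of large-subunit assembly, averaged 7.58 ± 4.51 CPM in SAF-TF, against 71.5 ± 4.24 CPM in PF-TF, and 3.08 ± 0.341 CPM in SAF-WT, against 33.5 ± 1.60 CPM in PF-WT, with log2 fold changes of -3.24 ± 0.40 and -3.44 ± 0.42. Nsun4, a methyltransferase of mitochondrial ribosomal RNA, fell by 1.96 ± 0.30 in TF and 2.75 ± 0.31 in WT, and Tfb1m, another such methyltransferase, by 1.98 ± 0.25 and 1.01 ± 0.25. Slirp, which stabilises mitochondrial messages, rose by 1.01 ± 0.24 and 1.03 ± 0.23, and was lower in SAF-TF than in SAF-WT (-1.05 ± 0.23). Of 10 translation factors, 0 were higher and 2 lower in TF, and 0 were higher and 3 lower in WT, with the initiation factor Mtif3 lower in both (-1.16 ± 0.25 and -0.90 ± 0.25). Of 17 mitochondrial aminoacyl-tRNA synthetases, 1 was higher and 3 lower in TF, and 0 were higher and 4 lower in WT, with Vars2, the valyl enzyme, lower in both (-2.16 ± 0.45 and -2.96 ± 0.49).

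Against those same shares, of 9 measured genes of mitochondrial transcription and genome maintenance, 1 was higher and 2 lower in SAF-TF, and 1 was higher and 1 lower in SAF-WT; Polrmt, the mitochondrial RNA polymerase, fell by 3.70 ± 0.52 in TF and 1.79 ± 0.49 in WT. Ssbp1, which binds single-stranded mitochondrial DNA, rose in WT (0.93 ± 0.20), was at 0.42 ± 0.20 in TF and was lower in SAF-TF than in SAF-WT (-1.10 ± 0.20). Of 9 regulators of mitochondrial biogenesis, 2 were higher and 3 lower in TF, and 2 were higher and 1 lower in WT. Nrf1, whose letters were searched above, had 13.6 ± 0.0834 CPM in SAF-TF, against 65.2 ± 4.62 CPM in PF-TF, and 12.5 ± 0.211 CPM in SAF-WT, against 45.7 ± 2.70 CPM in PF-WT, with log2 fold changes of -2.26 ± 0.25 and -1.87 ± 0.25. Gabpa, the DNA-binding subunit of GABP, rose by 0.78 ± 0.22 and 0.91 ± 0.22. Gabpb1, of its partner subunit, went the other way and was called lower in TF. It had 34.8 and 33.8 CPM in SAF-TF, against 85.2 and 65.1 CPM in PF-TF. In wild type follicles it had 47.0 and 51.1 CPM in SAF-WT, against 72.4 and 72.0 CPM in PF-WT. These levels are of RNA and do not measure the activity of a factor.

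In the authors' deposited table, 50 of the 76 genes were higher and 2 lower in SAF-TF over PF-TF at an FDR under 0.05, where 24% and 16.7% of all 22129 genes were. In the authors' deposited table for wild type follicles, 47 were higher and 2 lower in SAF-WT over PF-WT, where 20.7% and 14% of all 22138 genes were. The median log2 ratio over the 76 genes in the authors' deposited tables was 0.59 in TF and 0.58 in WT.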

How the data were processed

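Counts per gene were deposited by the authors for 8 libraries in 1 table for TF and 1 for WT. The values are raw whole numbers per the file headers and values. Per the labels' protocols, a SMARTer Ultra Low Input kit made the cDNA from polyadenylated RNA. Per the submitters' processing notes, HISAT2 2.0.1 was the aligner and GRCm38 the build. For the read counter, annotation and strand setting, nothing is given in the sources used here. The deposited signal columns are group means of counts after 1 scale factor per library, set by the authors within each table. The deposited log2 values compare the signal of SAF with that of PF, and the deposited FDR column holds the authors' adjusted p-value, by a test not named in the sources used here.

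The counts of genes in both tables were analysed with edgeR 4.0.16 (R 4.3.3): TMM factors, filterByExpr with a minimum count of 10 per library and 15 in total (17925 genes passed), 1 mean per group over all 8 libraries with 4 residual degrees of freedom, the quasi-likelihood test, and p-values adjusted by Benjamini-Hochberg across those genes, called at 0.05. Each standard error is the absolute log2 fold change over the root of its F. The biological coefficient of variation was 0.303. CPM are TMM-scaled. The steps were tested on simulated data. Lengths, GC content and exon overlaps came from GENCODE transcripts of GRCm38, and positions and promoters from RefSeq GRCm38.p6. The NRF1 and YY1 motifs were searched in a shortened form.

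Genes named in the text are, per comparison, the 4 of smallest p in each direction among those called (or the 4 of smallest p if under 4 were called), the 5 highest and lowest per kb, the 4 of widest range, a set named for known roles, and the 2 of smallest p in each further list and comparison among those called; other genes named were chosen after their values were seen. The genes, lists and rules were chosen with earlier results of these data known. Alternatives were RLE factors, the scale factors of the authors, a GC and length correction (mgcv 1.9.3), no filter, DESeq2 1.42.0, a fit to the 4 libraries of the comparison alone, a block for the replicate number, and each library left out. The precision is limited by 2 libraries per group.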

Additional observations from a re-analysis of the deposited data

How the results depend on the processing

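Over the 76 genes and 5 comparisons, none of the 76 fold changes that passed the test changed sign under the settings run, whereas 116 of the 304 that did not pass changed sign under at least 1 of them. Among these, with the scale factors of the authors, the stage effect was 0.02 for Mrps18b and 0.15 for Mrpl44 in TF and 0.13 for Mrpl10 and 0.33 for Mrpl46 in WT. Lower genes in SAF-TF over SAF-WT (12 as reported) numbered 4 with the GC and length correction, 19 with DESeq2, 21 with only the 4 libraries compared, and 0 to 16 with a library left out. Higher genes there (1) numbered 0 with the correction, 5 with the 4 libraries compared, and 0 to 1 with a library left out. Lower genes in PF-TF over PF-WT (0) numbered 1 without the filter, 18 with DESeq2, and 0 to 11 with a library left out. In SAF-TF over PF-TF, leaving out a library gave 19 to 34 higher and 1 to 6 lower genes. In SAF-WT over PF-WT it gave 8 to 25 higher and 1 to 5 lower, and lower genes numbered 1 with the scale factors of the authors and 2 with the correction. The cause was not tested. The numbers called among all genes also changed across these settings. Taken alone, the counts above therefore do not show a change particular to the 76 genes. Of all genes, 332 were higher and 990 lower with DESeq2 in PF-TF over PF-WT (12 and 27 as reported). In SAF-TF over SAF-WT they were 2118 and 1803 with the 4 libraries compared (827 and 958). Lower in SAF-TF over SAF-WT were 3.5% of all genes with the correction and 9% with DESeq2, against 5.34% as reported. In SAF-WT over PF-WT, 17.4% were lower with the scale factors of the authors and 17.1% with the correction, against 22.5% as reported. The scale factors of the authors were set within each table and were not run for TF over WT. By subunit medians, which place PF-WT and not PF-TF lowest, the log2 ratio of large to small subunit CPM was 0.15 in SAF-TF, 0.055 in PF-TF, 0.27 in SAF-WT and 0.0376 in PF-WT, and by structure 0.96, 0.87, 0.94 and 0.95.

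Same-numbered libraries did not deviate together (r of deviations from group means 0.11 for SAF-TF with PF-TF, 0.01 for SAF-WT with PF-WT, -0.08 for SAF-TF with SAF-WT and -0.12 for PF-TF with PF-WT). With 2 libraries per group, these values cannot show whether the numbers pair follicles, and the labels do not say. With the replicate block, 2 genes were lower and 1 higher in SAF-TF over SAF-WT, 29 higher and 2 lower in SAF-TF over PF-TF, 24 higher and 5 lower in SAF-WT over PF-WT, and 0 called in PF-TF over PF-WT. With the numbers crossed for PF-TF and PF-WT, a setting chosen after seeing the data, 0 of the 76 were called.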

Other observations

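Families with related roles were taken by symbol pattern after the values above were seen. Of 80 cytosolic ribosomal protein genes, 57 were higher and 6 lower in SAF-TF than in PF-TF, 60 were higher and 2 lower between these stages in WT, and 61 were lower and 0 higher in SAF-TF than in SAF-WT, by the edgeR test. Of all genes, 18.2% were higher and 25% lower in the first of these comparisons, 12.7% and 22.5% in the second, and in the last 5.34% were lower and 4.61% higher. Of 78 oxidative phosphorylation genes tested, 61 were higher and 3 lower in SAF-TF than in PF-TF, 52 were higher and 2 lower between these stages in WT, and 21 were lower and 0 higher in SAF-TF than in SAF-WT. In PF-TF over PF-WT, 1 cytosolic ribosomal protein gene was lower and 0 oxidative phosphorylation genes were called, where 0.151% of all genes were lower. At an unadjusted p under 0.05 by the edgeR test, 74 of the 80 cytosolic ribosomal protein genes were lower and 2 higher. Of the 78 oxidative phosphorylation genes, 54 were lower and 1 higher, against 13.3% and 7.49% of all genes. The median log2 fold changes were -0.88 and -0.73, against -0.48 over the 76 genes and -0.03 over all genes.

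Lars2, the mitochondrial leucyl-tRNA synthetase, was the 1 gene of the lists of mitochondrial translation, transcription and biogenesis called in the interaction, at 3.24 ± 0.55 on the log2 scale (edgeR adjusted p = 0.0309). It had 593 and 230 CPM in SAF-TF, 151 and 128 CPM in PF-TF, 29.7 and 43.3 CPM in SAF-WT, and 116 and 117 CPM in PF-WT. It rose in SAF-TF over PF-TF (1.56 ± 0.38) and fell in SAF-WT over PF-WT (-1.68 ± 0.39), and the SAF-TF libraries lay far apart.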
